A study of Mus musculus with 6 samples.

Results

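The aminoacyl-tRNA synthetase genes and the genes of their scaffold proteins Aimp1 and Aimp2 were followed across CPEB1 RIP-seq of freshly isolated satellite cells (fiSCs), the stem cells of skeletal muscle. The rule for members uses gene symbols and no measured value, although it was chosen with earlier results of these data known. It found 40 of the 55376 genes in the count and FPKM tables. They comprised 19 synthetase genes of the cytosol, 17 of mitochondria, Gars and Kars, whose products serve both compartments, and the 2 scaffold genes. The cells came from C57BL/6 mice of 3 months of age and were sorted as CD31-, CD45-, Sca1- and Vcam1+. The labels give no transgene, deletion or treatment for any group. There were 3 groups of 2 libraries: RNA recovered with an anti-CPEB1 antibody (CPEB1 IP), RNA recovered with control IgG, and input RNA. The deposit describes its libraries as biological replicates. Each p-value below sets a difference between groups against the spread between the 2 libraries of a group, estimated partly across genes. A lysate was made from many pooled cells, so fewer cells holding an mRNA and less of that mRNA in each cell cannot be told apart.

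Aminoacyl-tRNA synthetases join each amino acid to its tRNA, the step that fixes the meaning of the genetic code, and they are therefore used by every cell that makes protein. Cytosol and mitochondria have mostly separate sets of these enzymes, and in the cytosol several of them are held with Aimp1, Aimp2 and Eef1e1 in a multisynthetase complex. CPEB1 binds U-rich cytoplasmic polyadenylation elements (CPEs) in the 3′ UTR of mRNAs and acts on their polyadenylation and translation. The comparison of CPEB1 IP with IgG asks which mRNAs came down with CPEB1 beyond what beads and a non-specific antibody retain, and the comparisons with input ask how either precipitate differs from the RNA of the cells.

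Counts on genes were between 3270067 and 3314547 in input, 2564323 and 4941653 in CPEB1 IP, and only 1284716 and 1359052 in IgG. Gene counts were 39.5% and 39.1% of the library totals behind the deposited FPKM in the IgG libraries, 69.9% and 69.5% in CPEB1 IP, and 71.1% and 79.8% in input. Cpeb1 itself was at 97.6 and 82.2 CPM in input, 90.4 and 95.4 CPM in IgG, and 197 and 216 CPM in CPEB1 IP. It was 2.13-fold higher in CPEB1 IP than in IgG (log2 fold change 1.09 ± 0.12, SE, edgeR adjusted p = 2.5e-06). All 10 satellite cell markers exceeded 1 FPKM in every group, with a summed level of 10111 to 13470 CPM per library. That sum hides a split within the list. In CPEB1 IP over input, 1 marker (Myod1) was higher and 5 were lower, beside 17.0% and 15.8% of all genes. In IgG over input, 1 (Myod1) was higher and 7 were lower, beside 21.4% and 19.4% of all genes. The summed level of 6 endothelial markers was 119 to 125 CPM in input, 247 to 258 CPM in IgG and 332 to 355 CPM in CPEB1 IP. Of the 6, 5 were higher than input in CPEB1 IP and 4 in IgG, and 0 were lower. Cldn5 rose the most, from a mean of 12.4 CPM in input to 123 in IgG and 184 in CPEB1 IP. Tek, the highest of them in input, was at means of 82.4, 58.4 and 73.4 CPM. Markers of blood cells, at 38.7 to 44.5 CPM in input, reached 74.6 to 88.1 CPM in the precipitates. Fibro-adipogenic markers were at 252 to 309 CPM in input, 377 to 432 CPM in IgG and 531 to 539 CPM in CPEB1 IP, and myofibre markers at 70.8 to 78.9, 119 to 128 and 137 to 164 CPM. Of the fibro-adipogenic markers tested, 4 of 5 were higher than input in CPEB1 IP and 5 of 6 in IgG, and 0 were lower. In input, IgG and CPEB1 IP, Dcn had means of 75.9, 213 and 286 CPM and Col1a1 of 189, 143 and 201 CPM. No marker of any of these lists was at 0 in both libraries of a group, and the part of other cells in the results on synthetases was not tested.

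Together the 40 genes took 14779 and 14065 counts in input, 5091 and 5519 in IgG, and 11843 and 23754 in CPEB1 IP. These were 0.452% and 0.424%, 0.396% and 0.406%, and 0.462% and 0.481% of the counts on genes. Between the libraries of a group, the median absolute log2 difference of a member's CPM was 0.21 in input, 0.24 in IgG and 0.11 in CPEB1 IP. The most uneven member was Vars2 in IgG, with 13 and 4 counts. The shallower IgG libraries thus limited what could be seen of the weakly expressed members, whose lowest counts there were 7 and 3.

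CPE motifs were looked for in the 3′ UTRs of these genes, since CPEB1 is known to bind such elements, although RIP-seq does not map where on an mRNA it was bound. A CPE was counted where any of 9 motifs of the study's list stood in an annotated 3′ UTR in the sense direction. They were TTTTAT and, also called canonical here, TTTTAAT. The longer variants were TTTTAACT, TTTTAAAT, TTTTAAGT, TTTTAATT and TTTTAAAGT, and the shorter ones were TTTTACT and, with a C in place of the first A, TTTTCAT. The motifs share their first letters, so a longer one can hold a shorter one, and the list was held only in part. One site is shown for each member with a CPE that passed the test in CPEB1 IP over IgG, the one nearest the end of its transcript, with the motif in capitals. Hars and Nars also passed and hold CPEs, and their sites are not shown. The first set is of genes that were higher in CPEB1 IP.
Gars: tggctgcttggTTTTACTcccacaattaa
Sars: aacagcatgaaTTTTATggttgggggcc
Tars: cgtaacctacaTTTTATtgaaggagctg
Aars: cataaaaactaTTTTATgactggaaata
Eprs: gcaatttttctTTTTCATtttttaaaact
The second set is of genes that were lower.
Tarsl2: aagagttacagTTTTAATgcttctaatca
Wars2: ctttcctttcgTTTTATctgtttgcatt
Tars2: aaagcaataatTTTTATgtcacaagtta
Lars2: atcataaaggaTTTTAAATttttttacaag
Kars and Farsa, which did not pass this test, are shown for comparison because their site lies close to a polyadenylation signal.
Kars: aaagaagttctTTTTATtcctcgttacc
Farsa: caggccagctgTTTTAATaaagtgggcac
The sites are 40 bases from the transcript end in Gars and Farsa, 33 in Kars, 65 in Sars, 68 in Aars, 79 in Tarsl2, 122 in Eprs, 132 in Tars2, 248 in Lars2, 270 in Tars and 1329 in Wars2. In Farsa the motif ends inside the AATAAA hexamer that directs cleavage and polyadenylation.

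In input, expression per transcript length separated the cytosolic from the mitochondrial enzymes. The median of the mean FPKM was 23.7 over the 19 cytosolic genes and 2.35 over the 17 mitochondrial genes, and 16 cytosolic but only 2 mitochondrial genes exceeded 10 FPKM. Nars, the asparaginyl-tRNA synthetase, had the highest level, with 79.9 and 83.8 FPKM in input, 39.3 and 43.0 in IgG, and 111 and 115 in CPEB1 IP. Hars, which charges histidine, followed at 38.1 and 45.1 FPKM in input, and Gars, which charges glycine, at 38.6 and 36.1 FPKM. The input libraries of Hars and Gars overlapped, so their order was not resolved, whereas both Nars libraries lay above them.

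**Figure D1:**
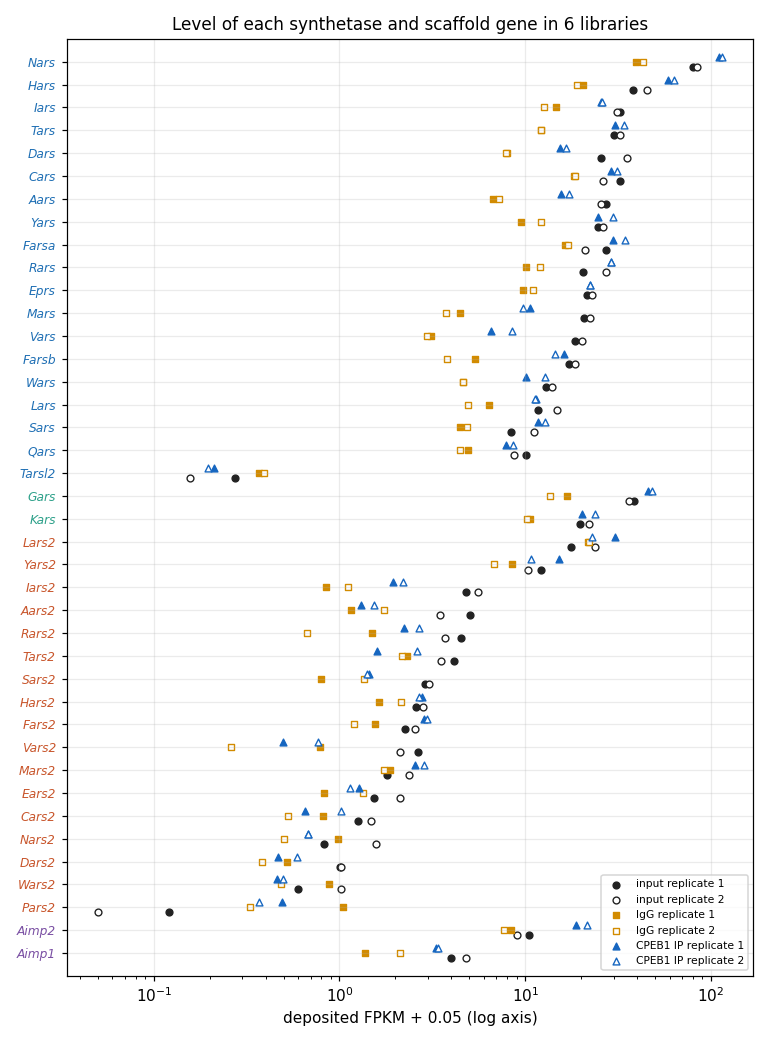
Deposited FPKM of each gene in 6 libraries (horizontal log axis, FPKM plus 0.05), with symbols coloured by group and filled for replicate 1 and open for replicate 2. Gene names are blue for cytosolic, green for both compartments, orange for mitochondrial and purple for scaffold genes. Nars is at the top with 81.9 FPKM on average in input and Pars2 near the bottom with 0.035.

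Pars2, Tarsl2 and Wars2 had the lowest input levels. Pars2, the mitochondrial prolyl-tRNA synthetase, had 1 and 0 counts in input, 10 and 3 in IgG, and 5 and 7 in CPEB1 IP, too few for the filter of the test in any comparison. Tarsl2, a second cytosolic threonyl-tRNA synthetase, had 7 and 3 counts in input, which was 0.226 and 0.107 FPKM. Tars, the main enzyme for threonine, stood at 30.1 and 32.5 FPKM in the same libraries. Wars2, the mitochondrial enzyme for tryptophan, was at 0.548 and 0.972 FPKM in input. Neither Tarsl2 nor Wars2 had more than 24 counts in any library.

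Among the mitochondrial enzymes Lars2, for leucine, stood apart from the others. Its input level was 17.6 and 23.8 FPKM, close to that of Kars with 19.8 and 22.0 FPKM, with which it overlapped. Yars2, for tyrosine, was next at 12.1 and 10.2 FPKM, below both Lars2 libraries. The remaining mitochondrial genes did not exceed a mean of 5.13 FPKM, the level of Iars2. In the IgG libraries Lars2 was at 21.7 and 22.0 FPKM, where the median of the mitochondrial genes was 1.03 FPKM.

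Against IgG, 13 of the 38 members tested were higher in CPEB1 IP and 4 were lower, at a Benjamini-Hochberg adjusted p under 0.05 over all genes (quasi-likelihood test of edgeR). Of all 12124 genes tested, 14.7% were higher and 18.7% lower. The 13 were 11 cytosolic synthetases, Gars and Aimp2, with log2 fold changes between 0.30 and 0.94. The 4 lower were Lars2, Tars2 and Wars2 of mitochondria and Tarsl2 of the cytosol. The median log2 fold change was 0.51 over the cytosolic genes, -0.40 over the 15 mitochondrial genes tested, 0.20 over all members tested and -0.01 over all genes tested.

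Farsb, the beta subunit of the cytosolic phenylalanyl-tRNA synthetase, showed the largest increase. It was at 34.2 and 24.8 CPM in IgG and at 64.6 and 55.1 CPM in CPEB1 IP. Both CPEB1 IP libraries were above both IgG libraries, and the log2 fold change was 0.94 ± 0.21 (SE, edgeR adjusted p = 0.00167). Its partner Farsa, the catalytic alpha subunit, was at 183 and 194 CPM in IgG and at 205 and 230 CPM in CPEB1 IP, a log2 fold change of 0.15 ± 0.11 (SE) that missed the threshold (edgeR adjusted p = 0.33). Whether the 2 subunits differed in their change was not tested. Farsb shares 248 exonic bases with Sgpp2 on the opposite strand, and the libraries do not mark strand, so reads there cannot be assigned to one of them.

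Gars was at 129 and 107 CPM in IgG and at 218 and 220 CPM in CPEB1 IP. The groups did not overlap, and the log2 fold change was 0.83 ± 0.12 (SE, edgeR adjusted p = 3.89e-05). The gene lies on chromosome 6 from 55038007 to 55079500 on the plus strand of mm10, and its 3′ UTR of 155 bases holds the single CPE shown above. Kars, the other enzyme that serves both compartments, was at 116 and 114 CPM in IgG and at 138 and 154 CPM in CPEB1 IP. Its CPEB1 IP libraries also exceeded both IgG libraries, but its log2 fold change of 0.29 ± 0.12 (SE) missed the threshold (edgeR adjusted p = 0.08).

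Hars rose from 124 and 117 CPM in IgG to 218 and 227 CPM in CPEB1 IP, a log2 fold change of 0.82 ± 0.11 (SE, edgeR adjusted p = 2.58e-05). Hars2, the mitochondrial enzyme for the same amino acid, is encoded next to it and shares 195 exonic bases with it on the opposite strand. Hars2 was at 16.7 and 22.6 CPM in IgG and at 17.9 and 16.5 CPM in CPEB1 IP, and its groups overlapped. Nars was at 422 and 474 CPM in IgG and at 739 and 735 CPM in CPEB1 IP, with a log2 fold change of 0.65 ± 0.09 (SE, edgeR adjusted p = 3.88e-05). The spread of Nars within a group, an SD of 36.7 CPM in IgG and 2.71 CPM in CPEB1 IP, was small beside that difference.

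Tars was at 177 and 181 CPM in IgG and at 274 and 293 CPM in CPEB1 IP, with no overlap and a log2 fold change of 0.60 ± 0.10 (SE, edgeR adjusted p = 0.00021). The other genes that charge threonine went the other way. Tarsl2 had 7 and 8 counts in IgG and 4 and 7 in CPEB1 IP, or 5.32 and 5.83 CPM against 1.67 and 1.45 CPM. Its log2 fold change of -1.90 ± 0.52 (SE, edgeR adjusted p = 0.00785) therefore rests on 26 reads in all. Tars2, the mitochondrial enzyme, was at 38.7 and 37.1 CPM in IgG and at 16.2 and 26.0 CPM in CPEB1 IP, a log2 fold change of -0.85 ± 0.26 (SE, edgeR adjusted p = 0.0149). For all 3 threonine genes the CPEB1 IP and IgG libraries did not overlap. The same held for most members, with 21 of the 38 tested wholly above IgG and 8 wholly below. The share over all genes was not counted, so these counts do not set the members apart from other genes.

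Wars2 was at 12.2 and 6.56 CPM in IgG and at 3.75 and 3.92 CPM in CPEB1 IP, a log2 fold change of -1.33 ± 0.47 (SE, edgeR adjusted p = 0.0352) from no more than 19 counts in any of these libraries. Lars2 was the lower call with the most reads. It was at 594 and 618 CPM in IgG and at 515 and 372 CPM in CPEB1 IP, with a log2 fold change of -0.53 ± 0.12 (SE, edgeR adjusted p = 0.00167). The CPEB1 IP libraries were both below the IgG libraries but differed from each other more than the IgG libraries did. Sars, Rars, Vars, Wars, Yars, Aars, Eprs and Aimp2 made up the rest of the higher calls, with log2 fold changes from 0.30 for Eprs to 0.59 for Sars. Mars, which charges methionine, had a log2 fold change of 0.51 ± 0.20 (SE) and missed the threshold narrowly (edgeR adjusted p = 0.0549).

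**Figure D2:**
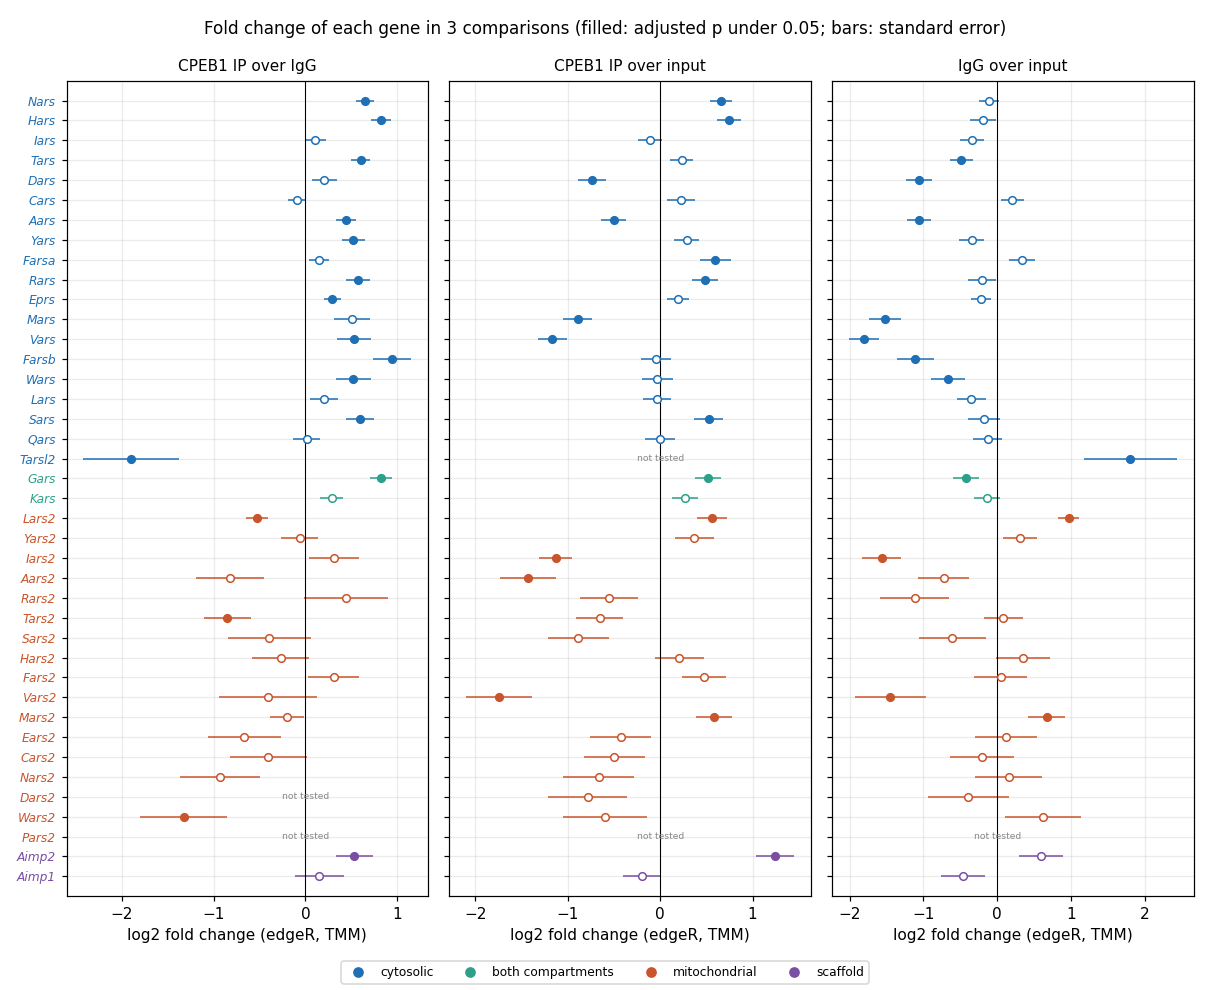
Log2 fold change of each gene with its standard error in CPEB1 IP over IgG, CPEB1 IP over input and IgG over input (horizontal axes), coloured by compartment and filled where the adjusted p was under 0.05. The left panel has 13 filled points above 0 and 4 below it, with no mitochondrial gene among the higher calls.

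The 7 genes Farsb, Yars, Gars, Rars, Tars, Hars and Nars were called higher under each of the 9 alternatives tried. No lower call was. Where low counts were not filtered or DESeq2 set the scale, the median of all tested genes moved from -0.01 to 0.39 and 0.27, and the median of the members minus that of all genes stayed at 0.21 and 0.22. On those scales 19 and 18 members were higher and 0 were lower. The share of all genes called on those scales was not counted, so these counts may only follow the scale. The mitochondrial median was then 0.01 and -0.15, so its sign depends on the scale, while the cytosolic median was 0.91 and 0.80. Without CPEB1 IP replicate 2 there were 8 higher calls, and the 4 lower calls fell to 1 without CPEB1 IP replicate 1, CPEB1 IP replicate 2 or IgG replicate 1.

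The change over IgG moved with the level of a gene in input across the whole table. Of the 2025 tested genes above 20 FPKM in input, 51.3% were higher in CPEB1 IP, and their median log2 fold change was 0.35. The 15 members at that level had 8 higher calls, 1 lower call and a median of 0.44, so their share was near that of other genes of the same level. Between 5 and 20 FPKM, 16.0% of 3905 genes were higher, with a median of 0.17. There the 9 members, Farsb, Iars2, Sars, Aimp2, Qars, Wars, Yars2, Vars and Lars, had 5 higher calls and a median of 0.52. From 1 to 5 FPKM, where 11 of the 17 mitochondrial genes and Aimp1 made up the 12 members tested, 2.59% of 4134 genes were higher and none of the members. Below 1 FPKM 60.0% of genes were lower, among them both members tested, Wars2 and Tarsl2. The cytosolic and mitochondrial enzymes differ in their level in input, and the part of that level in the difference between them was not tested.

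**Figure D3:**
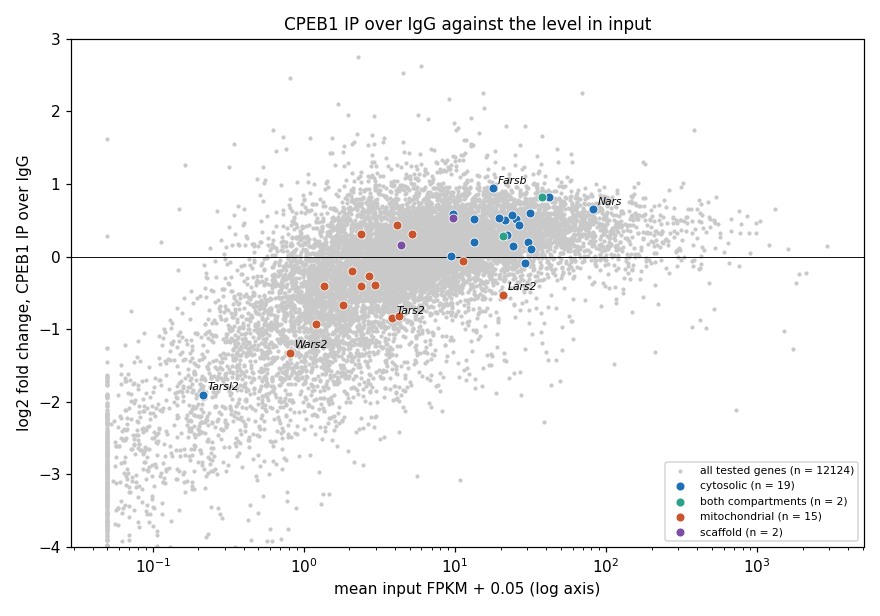
Log2 fold change in CPEB1 IP over IgG (vertical axis) against mean input FPKM plus 0.05 (horizontal log axis) for the 12124 genes tested in grey and the 38 members tested in colour by compartment. The cloud rises from left to right, and the members lie within it, with Lars2 at -0.53 where the median gene above 20 FPKM is at 0.35, and 65 grey genes fall outside the vertical range.

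The study calls CPEB1-associated genes by the ratio of FPKM in CPEB1 IP to IgG, above 2 both times, together with a DESeq2 test. Here 1 was added to each FPKM and the count test was that of edgeR. These criteria were met by 10 members, namely Aars, Aimp2, Farsb, Gars, Hars, Nars, Rars, Sars, Tars and Yars. Among the 10993 genes that were tested and exceeded 0.5 FPKM on average, 13.3% met them. With DESeq2 as the count test there were 11, the same 10 and Mars, among 1561 genes in all, where edgeR gave 1464. The ratios were 2.63 and 3.37 for Gars, 2.72 and 3.24 for Farsb, 2.76 and 3.23 for Hars, and 2.78 and 2.64 for Nars. At the other end of the list stood Aimp2 with 2.11 and 2.60 and Aars with 2.17 and 2.22. Mars had ratios of 2.13 and 2.29 and missed the edgeR threshold (adjusted p = 0.0549) but passed with DESeq2 (adjusted p = 0.0185). Eprs, Vars and Wars passed the edgeR test and missed the ratio in one experiment, Wars at 1.99 and 2.45. Lars2 had ratios of 1.38 and 1.04, above 1 although its TMM-normalized CPM was lower in CPEB1 IP.

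The scale of the FPKM bears on that count. The median log2 ratio of the 10993 genes was 0.62 and 0.69 with the deposited FPKM, in which a smaller share of the IgG total fell on genes, and 0.11 and 0.10 when FPKM was recomputed with TMM library sizes. The medians of the 37 members among them were 0.79 and 0.98 as deposited and 0.17 and 0.27 with TMM sizes. On the second scale no member reached 2 in both experiments, as against 76 of all genes that also passed the count test. By the lower of both ratios Farsb, with 1.83 and 2.11, and Hars, with 1.75 and 1.92, came nearest.

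**Figure D4:**
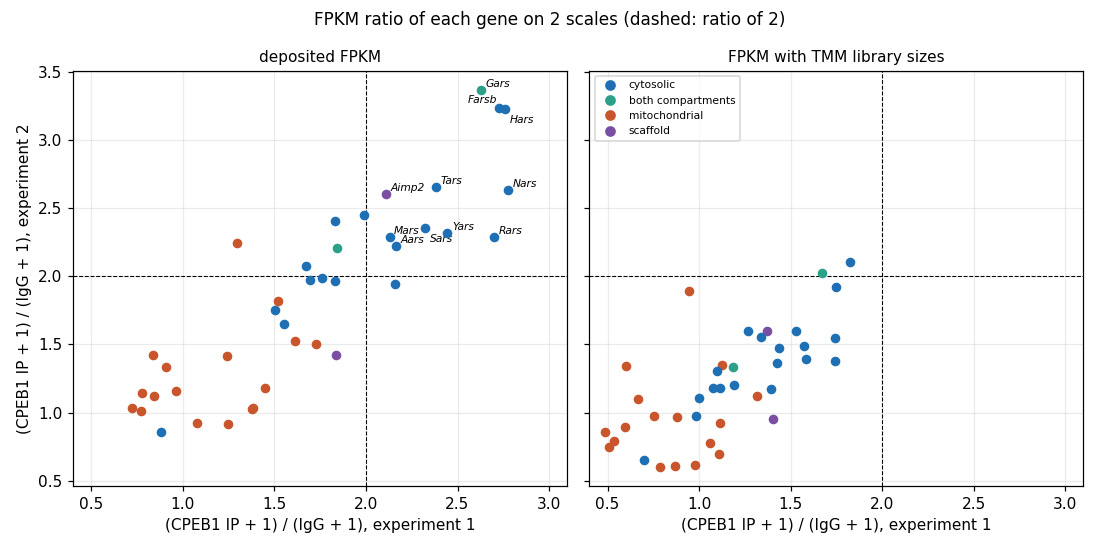
Ratio of CPEB1 IP to IgG, each as FPKM plus 1, in experiment 1 (horizontal axis) and experiment 2 (vertical axis), from the deposited FPKM on the left and with TMM library sizes on the right, with dashed lines at a ratio of 2. On the left 11 named genes are past both lines, and on the right none is.

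CPEB1 IP also differed from input, with 9 of the 38 members tested higher and 7 lower, where 17.0% of all 12171 tested genes were higher and 15.8% lower. The median log2 fold change was 0.10 over the 18 cytosolic genes tested, -0.58 over 16 mitochondrial genes, -0.03 over all members and 0.00 over all genes. Higher were Aimp2, Hars, Nars, Farsa, Mars2, Lars2, Sars, Gars and Rars. Lower were Vars2, Aars2, Vars, Iars2, Mars, Dars and Aars.

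Aimp2, a scaffold of the multisynthetase complex, had the largest increase over input. It was at 24.2 and 19.5 CPM in input, 34.2 and 32.0 CPM in IgG, and 47.5 and 52.2 CPM in CPEB1 IP. The 3 groups did not overlap, and CPEB1 IP was 2.37-fold above input (log2 fold change 1.24 ± 0.21, SE, edgeR adjusted p = 0.000655) and 1.45-fold above IgG (0.53 ± 0.20, edgeR adjusted p = 0.0447). The call over input was made under each of the 9 alternatives, and that over IgG under 4 of 9. Of the exonic bases of Aimp2, 29.4% overlap Eif2ak1 on the opposite strand, and its reads cannot be told apart there. Aimp1, another scaffold of the complex, was at 31.0 and 34.6 CPM in input, 18.2 and 29.1 in IgG, and 27.9 and 27.5 in CPEB1 IP. Its CPEB1 IP libraries lay between the IgG libraries, and it passed no test.

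Hars, at 132 and 144 CPM in input, and Nars, at 492 and 477 CPM, were higher in CPEB1 IP than in input by log2 fold changes of 0.75 ± 0.13 and 0.65 ± 0.12 (SE, edgeR adjusted p = 0.00103 and 0.0014). These comparisons share the CPEB1 IP libraries with those against IgG and are not independent of them. Farsa was at 175 and 124 CPM in input, below both CPEB1 IP libraries, with a log2 fold change of 0.59 ± 0.17 (SE, edgeR adjusted p = 0.0167). Mars2, the mitochondrial enzyme for methionine, rose from 27.9 and 34.3 CPM in input to 43.3 and 46.2 CPM, a log2 fold change of 0.58 ± 0.19 (SE, edgeR adjusted p = 0.0339). In IgG it was at 50.9 and 48.1 CPM, above both CPEB1 IP libraries.

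The decreases against input involved both compartments. Vars2, the mitochondrial enzyme for valine, went from 19.9 and 14.8 CPM in input to 3.75 and 5.78 CPM in CPEB1 IP, a log2 fold change of -1.74 ± 0.36 (SE, edgeR adjusted p = 0.00275). Vars, its cytosolic counterpart, went from 147 and 148 CPM to 55.4 and 69.6 CPM, a log2 fold change of -1.17 ± 0.16 (SE, edgeR adjusted p = 0.000142). Aars2, for alanine in mitochondria, was at 33.8 and 21.4 CPM in input and at 9.17 and 10.3 CPM in CPEB1 IP, with a log2 fold change of -1.43 ± 0.30 (SE, edgeR adjusted p = 0.00302). None of these genes had overlapping groups in CPEB1 IP and input. Among the 38 members tested, 15 lay wholly above input and 17 wholly below. Here too the share over all genes was not counted, and the counts do not set the members apart. Iars2, for isoleucine, fell from 59.2 and 64.2 CPM to 25.8 and 28.1 CPM (log2 fold change -1.13 ± 0.18, SE, edgeR adjusted p = 0.000502). Mars fell from 99.4 and 99.5 CPM to 55.0 and 48.9 CPM, and Dars, for aspartate, from 158 and 201 CPM to 102 and 105 CPM. Iars2 shares 22.9% of its exonic bases with Rab3gap2 on the opposite strand.

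These 6 genes, unlike the smaller change of Aars, were called lower than input under each of the 9 alternatives. Among the higher calls Aimp2, Hars and Nars were, and without CPEB1 IP replicate 1 or without CPEB1 IP replicate 2 the 9 higher calls fell to 4. With DESeq2 there were 6 higher and 7 lower calls, and the share of all genes called with it was not counted.

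IgG differed from input as well, with 3 of the 39 members tested higher and 10 lower, where 21.4% of all 12980 tested genes were higher and 19.4% lower. The median log2 fold change was -0.34 over the cytosolic genes, 0.07 over 16 mitochondrial genes, -0.21 over all members and 0.03 over all genes. The shared libraries tie this comparison to both others, and its calls are not independent of theirs.

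Vars went from 147 and 148 CPM in input to 42.5 and 41.5 CPM in IgG, the largest decrease (log2 fold change -1.81 ± 0.20, SE, edgeR adjusted p = 3.24e-09). Iars2 was at 17.5 and 24.0 CPM in IgG (-1.57 ± 0.27, edgeR adjusted p = 1.02e-05), Mars at 37.2 and 32.0 CPM (-1.52 ± 0.22, edgeR adjusted p = 7.23e-07) and Vars2 at 9.87 and 2.91 CPM (-1.45 ± 0.48, edgeR adjusted p = 0.0141). All 4 were thus lower than input in both precipitates. For Vars and Mars the CPEB1 IP libraries stood above the IgG libraries and below the input libraries. Farsb, Dars, Aars, Wars, Tars and Gars were the other lower calls, with log2 fold changes between -1.11 and -0.43.

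Lars2 was at 276 and 345 CPM in input and 594 and 618 CPM in IgG, 1.95-fold higher (log2 fold change 0.97 ± 0.14, SE, edgeR adjusted p = 1e-06). In CPEB1 IP, at 515 and 372 CPM, it lay between them, above input by 0.56 ± 0.16 on the log2 scale (SE, edgeR adjusted p = 0.018). Lars2 was the only member higher in IgG over input under each of the 9 alternatives. Mars2 (0.67 ± 0.25, edgeR adjusted p = 0.0326) and Tarsl2 (1.81 ± 0.63, edgeR adjusted p = 0.0203) completed the higher calls, the latter with 7 and 3 counts in input. Without IgG replicate 1 or without IgG replicate 2 the 3 higher calls fell to 1, and without IgG replicate 2 the 10 lower calls became 6. With DESeq2 there were 1 higher and 7 lower calls, and with no filter 2 and 14, again without a count over all genes.

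By structural class, 4 of the 18 class I genes tested were higher in CPEB1 IP than in IgG and 2 lower. Of 17 class II genes, 7 were higher and 2 lower, where 14.7% of all genes were higher and 18.7% lower. The median input level of the genes tested was 12.2 FPKM in class I and 17.9 FPKM in class II. Class I enzymes, such as Rars, Vars, Wars and Yars, carry a Rossmann-fold catalytic domain, and class II enzymes, such as Aars, Gars, Hars, Nars, Sars and Tars, an unrelated fold. Eprs carries one of each. The median log2 fold change was 0.06 in class I and 0.29 in class II. Class I holds 9 and class II 8 mitochondrial genes, and the classes were not tested against each other.

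Members inside and outside the multisynthetase complex were counted separately. The complex holds 8 synthetases, Kars and the 7 cytosolic enzymes Dars, Eprs, Iars, Lars, Mars, Qars and Rars. Of these 2 were higher over IgG (Eprs and Rars) and 0 lower, with a median log2 fold change of 0.25. Of the 13 synthetases of the cytosol or of both compartments outside it, 10 were higher and 1 lower, with a median of 0.53. Both lists had a median input level above 20 FPKM (21.8 and 25.3). Of all tested genes above 20 FPKM, 51.3% were higher and 4.25% lower. Both lists also hold genes below that level, and from 5 to 20 FPKM 16.0% of genes were higher and 6.30% lower. With Aimp1, Aimp2 and Eef1e1 the complex list held 11 genes, of which 3 were higher and 0 lower. All 11 log2 fold changes were above 0, the lowest at 0.01 for Qars, beside 5959 of all 12124 genes tested. Their median was 0.25, where that of all genes above 20 FPKM was 0.35. Eef1e1, the scaffold outside the symbol rule, was at 40.2 and 59.2 CPM in input, 79.8 and 62.6 in IgG, and 93.3 and 84.4 in CPEB1 IP. It was higher in CPEB1 IP than in input (log2 fold change 0.89 ± 0.18, SE, edgeR adjusted p = 0.0028). The difference between genes inside and outside the complex was not tested.

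A CPE was annotated in 22 of the 40 members, 18 with TTTTAT or TTTTAAT alone, where 66.8% of all genes tested against IgG and 74.4% of those with an annotated 3′ UTR hold one. Of all genes tested, 14.7% were higher over IgG and 18.7% lower, and these shares were not split by CPE. Of the 21 members tested with a CPE, 7 were higher over IgG and 4 lower, with a median log2 fold change of 0.21. Of the 17 without one, 6 were higher and 0 lower, with a median of 0.15. Those 6 were Farsb, Yars, Aimp2, Rars, Wars and Vars, and their longest annotated 3′ UTR was 67 bases in Vars, 98 in Aimp2, 101 in Rars, 249 in Farsb, 1066 in Yars and 1235 in Wars, where the median over genes tested was 1285. The number of sites was greatest in Mars2, whose 3′ UTR of 9470 bases holds 36 and whose log2 fold change over IgG was -0.20 ± 0.18 (SE, edgeR adjusted p = 0.436). Gars, with 1 site, and Tars, with 6, were both higher. No motif match says only that these letters are not in the annotated window.

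**Figure D5:**
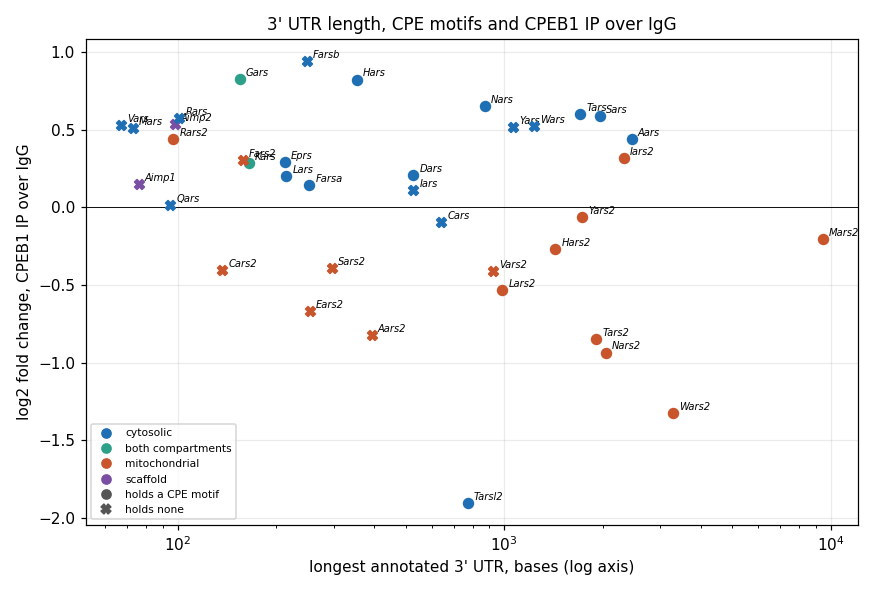
Log2 fold change in CPEB1 IP over IgG (vertical axis) against the length of the longest annotated 3′ UTR in bases (horizontal log axis) for the 38 members tested, as circles where a CPE motif is present and crosses where none is, coloured by compartment. Circles and crosses are both found above and below 0, and all 4 lower calls (Tarsl2, Wars2, Tars2 and Lars2) are circles, as are 21 of the 38 points.

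Some members share sequence with other genes in ways that the counting could split. Iars matches the processed pseudogene Gm4849 over 1656 bases at 96.0% identity, Aimp1 matches Gm12438 over 338 bases, and Vars matches Gm14780 over 333 bases, so their counts are uncertain to that extent. Aars shares 1326 exonic bases, 14.3% of its total, with Exosc6 on the same strand.

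Other genes of tRNA handling and of translation elongation were also followed as lists. Elongation factors had 4 of 7 genes higher over IgG and 0 lower, namely Eef1d, Eef1g, Eef2 and the mitochondrial Tufm. Their median input level was 85.8 FPKM, and the share was near the 51.3% of all genes above 20 FPKM, although Tufm was at 16.5 FPKM. Eef2, the translocase, had the largest change (log2 fold change 0.66 ± 0.09, SE, edgeR adjusted p = 2.85e-05). Of 13 tested genes that trim or complete tRNA ends, Elac2, Rpp14 and Hsd17b10 were higher and none lower, and over input, where 17.0% of all genes were higher, 6 of 14 were. Of 6 editing and recycling genes tested, none was higher over IgG and Aarsd1, a deacylase of mischarged alanyl-tRNA, was lower, on 8 and 7 reads in IgG and 5 and 6 in CPEB1 IP. The 4 genes of mitochondrial amidation and formylation passed in neither direction over IgG.

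Genes of the amino acid response, through which cells sense uncharged tRNA and raise synthetase and transporter transcription, were split. Of 15 tested, 5 were higher over IgG and 3 lower, where 14.7% of all genes were higher and 18.7% lower, so the lower calls were near the background share. Higher were Phgdh (log2 fold change 0.85 ± 0.15), Mthfd2 (0.76 ± 0.14), Slc3a2 (0.55 ± 0.09), Slc7a5 (0.53 ± 0.11) and Shmt2 (0.48 ± 0.16), enzymes of serine and one-carbon metabolism and subunits of amino acid transporters. Lower were Slc7a11 (-1.46 ± 0.44), Cebpb (-0.91 ± 0.32) and Eif2ak4 (-0.66 ± 0.23), the last a kinase that binds uncharged tRNA. These lower calls were kept under only 6, 3 and 2 of the 9 alternatives, and the higher calls under 8 or 9. Slc7a11 had uneven counts of 39 and 13 in IgG. Against input 3 of these genes were higher in CPEB1 IP and 1 lower, beside 17.0% and 15.8% of all genes, and in IgG 2 were higher and 5 lower, beside 21.4% and 19.4%.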

How the data were processed

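RNA was measured in 6 libraries made with SMART-Seq2 and sequenced on a NextSeq 500. The authors mapped reads to mm10 with HISAT, and the deposited counts are reads per gene from featureCounts with no further scaling. Gene lengths were deposited as exon bases summed per gene. The FPKM that the authors deposited divide the count by this length and by a library total larger than the counts on genes. The annotation release, the strand setting and the treatment of multimapping reads are not given in the sources used here.

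Groups were taken from the sample labels. Counts were compared 2 groups at a time in R 4.3.3 with edgeR 4.0.16: filterByExpr, TMM and the quasi-likelihood test, with p-values adjusted over all genes tested (Benjamini-Hochberg, threshold 0.05). The standard error is the log2 fold change divided by the square root of F. CPM used TMM factors over all 6 libraries. Alternatives were DESeq2 1.42.0, DESeq2 size factors in edgeR, no filter on low counts, all 6 libraries in 1 fit, a replicate block, other pseudocounts, crossed pairs, TMM library sizes for FPKM and leaving out each library. The procedure was tested on simulated data. Tables used Python 3.11.15, numpy 2.4.6, pandas 2.3.3 and matplotlib 3.10.9.

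Of the 55376 genes, 54509 were matched to GENCODE M21, and all 40 members have the coordinates of the tables there. A 3′ UTR is the exonic sequence after the stop codon of protein-coding transcripts, and printed sites come from the GENCODE M21 transcripts. Site distances refer to the longest 3′ UTR.

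Every member could be named. Values in every library were given to the members past the threshold with the largest changes (8 over IgG, 6 in each direction in CPEB1 IP over input, 4 in each direction in IgG over input), the 3 highest and 3 lowest in input, Gars, Kars, Aimp1 and Aimp2. Farsa, Hars2 and Yars2 were also set beside related members after their values were seen. The members and gene lists were chosen with earlier results of these data known.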

Additional observations from a re-analysis of the deposited data

How the results depend on the processing

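With 2 libraries in each group, calls rest on a spread shared across genes, and in IgG, at 1284716 and 1359052 counts on genes, the weakly expressed mitochondrial genes had few reads. The members lower in CPEB1 IP over IgG numbered 4, and 0 with DESeq2 and 0 with no filter on low counts. The members higher in IgG over input numbered 3, and 1 with DESeq2. CPEB1-associated members numbered 10 among 1464 genes in all, and 11 among 1561 with DESeq2. They numbered 6 among 673 with a pseudocount of 5, and 0 among 76 with TMM library sizes. Leaving out 1 library at a time gave 8 to 12 members higher and 1 to 3 lower in CPEB1 IP over IgG, 4 to 9 higher and 6 to 8 lower in CPEB1 IP over input, 1 to 3 higher and 6 to 14 lower in IgG over input, and 8 to 12 CPEB1-associated members. With a library left out, the lone library of a group is assumed to vary like the other group. No call turned its direction under these alternatives. Among single members, 5 results came past the threshold with DESeq2 and 12 no longer did, against 10 and 7 with no filter and 1 and 4 with the replicate block. The shares of all genes called higher or lower under the alternatives were not counted, and the cause of these changes was not tested.

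Replicate numbers were not shown to pair the libraries. Across 14276 genes, the deviations of same-numbered libraries from the mean of their group correlated at -0.01 between CPEB1 IP and IgG, -0.02 between CPEB1 IP and input, and 0.03 between IgG and input. With a replicate block, 12 members were higher and 3 lower in CPEB1 IP over IgG, 8 and 7 in CPEB1 IP over input, 2 and 11 in IgG over input, and 9 were CPEB1-associated.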
